A study of Mus musculus with 91 samples.

Results

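Small RNAs of mouse semi-cloned (SC) embryos at embryonic day 6.5 (E6.5) were compared between 2 genotypes of the cells that had replaced sperm. SC embryos are made by injecting androgenetic haploid embryonic stem cells (AG-haESCs), which carry only a sperm-derived genome, into oocytes. The 3 libraries titled DKO-SC came from DKO-AG-haESCs, in which the differentially methylated regions (DMRs) of H19 and of the Dlk1-Dio3 locus (the IG-DMR) had both been deleted, and the 3 titled WT-SC came from wild-type (WT) AG-haESCs with both regions in place. These 6 libraries, chosen by their titles, are 6 of the 91 samples of the series, and all mature miRNAs counted in them were examined.

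Both groups shared the strain label C57BL/6 male X F1 female, the stage E6.5 and the tissue label semi-cloned embryo. The study's own account of the comparison names epiblast, which the labels do not state, so the tissue is called embryo here and its content is examined below. Both kinds of AG-haESC had been grown with LIF and the inhibitor pair 2i, under which WT AG-haESCs lose methylation at the paternal DMRs, so the WT embryos also received hypomethylated regions from the injected cell. Gene-modified AG-haESC lines were each expanded from a single cell, and which line or clone gave each embryo is not stated in the labels. Nor do the labels say whether the 3 libraries of a group came from separate embryos or from pools, so p-values measure the spread between libraries only. The main fit also held 3 libraries of Dnmt-null SC embryos at E6.5, in which the DNA methyltransferases were inactivated. They entered its filter, normalization and estimate of spread. The deleted regions make no miRNA, and no count therefore checks the genotype labels directly.

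The Dlk1-Dio3 locus on mouse chromosome 12 holds a large group of miRNAs that are made only from the maternal chromosome, from the non-coding transcripts Meg3, Rian and Mirg and from the RNA antisense to Rtl1. Its IG-DMR is methylated on the paternal chromosome, where the miRNAs are silent. The H19 DMR works in the same way for H19 and Igf2 on chromosome 7: H19, whose exon holds miR-675, is expressed from the maternal copy, and Igf2, whose intron holds miR-483, from the paternal copy. Around implantation the most abundant miRNAs of embryonic cells come from the miR-290 and miR-302 clusters, which promote cycling and pluripotency, while the let-7 family is held low until cells differentiate.

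The mature sequences on which the results turn are given 5′ to 3′ from RefSeq (GRCm38.p6), with the seed, bases 2 to 8, in capitals. The first 4 belong to let-7, share 1 seed and differ by few bases elsewhere, which matters because 2 of them were lower in DKO embryos and the others were not. Counted from 1 at the 5′ end, let-7b-5p differs from let-7c-5p by G17A alone, and let-7c-5p from let-7a-5p by G19A alone.
let-7b-5p: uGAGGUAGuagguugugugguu
let-7c-5p: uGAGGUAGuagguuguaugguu
let-7a-5p: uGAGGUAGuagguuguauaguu
let-7g-5p: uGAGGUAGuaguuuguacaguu
The miRNAs of the H19 and Igf2 genes have unrelated seeds.
miR-483-3p: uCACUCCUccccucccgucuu
miR-483-5p: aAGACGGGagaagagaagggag
miR-675-3p: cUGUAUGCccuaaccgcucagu
Some members of the miR-302 and miR-290 clusters share the seed AAGUGCU, shown for the most abundant miRNA of each.
miR-302b-3p: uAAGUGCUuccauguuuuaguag
miR-295-3p: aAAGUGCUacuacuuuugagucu
From the Dlk1-Dio3 locus, miR-127-3p and both arms of the miR-434 and miR-541 hairpins are shown, because the 2 arms behaved differently in 1 library.
miR-127-3p: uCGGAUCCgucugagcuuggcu
miR-434-5p: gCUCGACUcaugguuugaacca
miR-434-3p: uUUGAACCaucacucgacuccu
miR-541-5p: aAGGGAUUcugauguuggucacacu
miR-541-3p: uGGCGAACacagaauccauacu

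The libraries differed in depth. WT libraries held 338127, 522390 and 258279 miRNA counts, and DKO libraries held 2150520, 2340247 and 2425038. A count of 3 was therefore worth 5.74 to 11.6 CPM (counts scaled to a common library size) in the WT libraries and 1.24 to 1.40 in the DKO libraries. Depth and genotype cannot be told apart, since every DKO library was deeper than every WT library. No 2 libraries agreed within sampling noise.

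WT replicate 3 stood apart from the other 5 libraries. Over the 461 miRNAs tested, WT replicates 1 and 2 correlated with each other at 0.956 on the log CPM scale, the DKO libraries with each other at 0.993 to 0.994, and WT replicates 1 and 2 with the DKO libraries at 0.936 to 0.960. WT replicate 3 correlated with WT replicates 1 and 2 at 0.784 and 0.774 and with the DKO libraries at 0.736 to 0.751. These correlations run across miRNAs, which are not replicates, and describe the libraries only. After thinning all 6 libraries at random to 258279 counts, WT replicate 3 still correlated with the others at 0.779 to 0.826, against 0.948 to 0.987 for every other pair, and 444 miRNAs were detected in it against 665 to 708 in the others. On a log CPM scale computed over all libraries of the table, the closest of the 87 others to it were replicate 1 of control SC embryos at E7.5, of Dnmt-null SC embryos and of WT SC embryos, at 0.776, 0.770 and 0.767. Each result below is therefore given with all 6 libraries and, where its call, direction or size turned on this library, also without it.

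**Figure D1:**
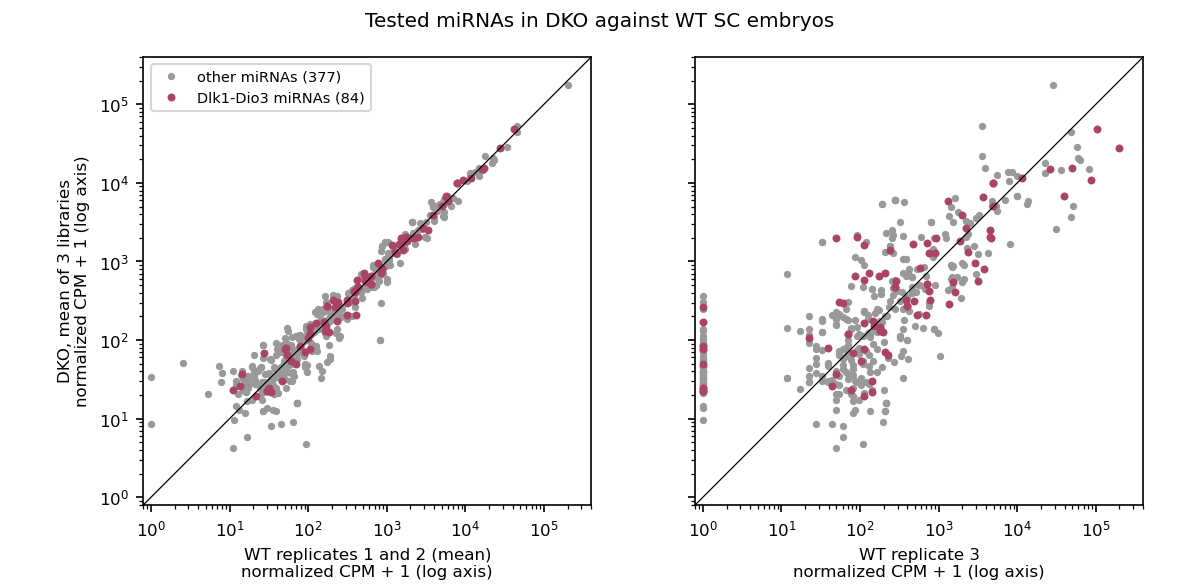
Normalized CPM plus 1 of the 461 tested miRNAs on log axes, the mean of the 3 DKO libraries against the mean of WT replicates 1 and 2 (left) and against WT replicate 3 (right), with the 84 Dlk1-Dio3 miRNAs in dark red and equality as a line. Points lie close to the line on the left and spread widely on the right, where many miRNAs were not detected in WT replicate 3.

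DKO and WT embryos had nearly the same miRNA profile once WT replicate 3 was set aside. Of the 274 miRNAs with a mean of at least 100 CPM over the 6 libraries, 262 (95.6%) had a DKO mean within a factor of 2 of the mean of WT replicates 1 and 2. With all 6 libraries, fitted beside the Dnmt-null ones, edgeR called 1 of 461 tested miRNAs lower in DKO embryos (0.217%) and 0 higher (0%). Calls were by its quasi-likelihood test at a Benjamini-Hochberg adjusted p under 0.05 and a log2 fold change beyond 0.5. At an unadjusted p under 0.05 and the same fold change, the thresholds used by the study, 17 miRNAs were higher (3.69%) and 43 lower (9.33%). DESeq2 on the same libraries called 5 higher (1.08%) and 29 lower (6.29%) by adjusted p. Without WT replicate 3, edgeR called 1 of 505 higher (0.198%) and 4 lower (0.792%), namely miR-483-3p upward and let-7b-5p, let-7c-5p, miR-1934-3p and miR-3473c downward. Of these, let-7c-5p, miR-1934-3p and miR-3473c are named here because their values had been seen, as are let-7g-5p, miR-485, miR-451a, miR-144-3p, miR-486a-5p, miR-203, miR-466i-5p, miR-467c-5p, miR-667-5p and miR-291b-5p below.

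A fit of the 5 remaining WT and DKO libraries alone, without the more variable Dnmt-null embryos that otherwise share its estimate of spread, called 24 of 664 miRNAs higher (3.61%) and 26 lower (3.92%). With these 5 libraries thinned to 338127 counts each, 11 were called higher (2.58%) and 15 lower (3.52%) of 426, all of them among the former 50. The 24 higher miRNAs included 18 from the families of the Sfmbt2 cluster. The 26 lower ones included 6 of the blood and endothelium list, 2 of let-7 and 4 named miR-3473, and let-7g-5p was among the higher ones. This fit was chosen after the data had been seen, and these groups, except miR-3473, are described in turn.

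let-7b-5p was lower in every DKO library and is the only miRNA that edgeR's main fit called with all 6 libraries. Its gene, Mirlet7b, lies on chromosome 15 (chr15:85707319-85707403, plus strand, GRCm38). WT libraries held 94.1, 91.9 and 107 normalized CPM and DKO libraries 4.61, 4.58 and 2.05, so the groups did not overlap and WT replicate 3 was close to the other WT libraries. Behind these values stood 30, 51 and 20 counts in WT and 10, 11 and 5 in the much deeper DKO libraries. The log2 fold change was -4.66 ± 0.70 (SE, n = 3 and 3, edgeR adjusted p = 0.0248). Pooled over libraries, the DKO level was 0.0416 of the WT level (95% exact interval 0.0260 to 0.0646, covering counting error only). With the replicate number as a block the log2 fold change was -4.61 and the call was lost (edgeR adjusted p = 0.0889), and after thinning all 9 SC libraries to the smallest total it was -3.98 (edgeR adjusted p = 0.214). Leaving out WT replicate 2 or any 1 DKO library also lost the call, with adjusted p from 0.0904 to 0.223 in edgeR and log2 fold changes of -4.78 to -4.35. In the 5-library fit the call held, before thinning (-4.60, edgeR adjusted p = 0.000921) and after it (-3.94, edgeR adjusted p = 0.00195).

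let-7c-5p, which is made from 2 genes, 1 of them beside Mirlet7b, moved the same way with a smaller size. The WT libraries held 182, 196.4 and 408 normalized CPM and the DKO libraries 48.9, 55.8 and 66.4, again without overlap. Its log2 fold change was -2.18 ± 0.43 (SE, edgeR adjusted p = 0.0605) with all libraries and -1.71 ± 0.31 (edgeR adjusted p = 0.0494) without WT replicate 3. let-7g-5p, from another gene, had 81.5, 23.4 and 75.2 normalized CPM in WT and 140, 136.1 and 149 in DKO libraries, all above WT, at an edgeR adjusted p of 0.286 (0.0434 in the 5-library fit).

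The most abundant let-7 members overlapped between the groups. let-7f-5p, the most abundant, had 511, 296 and 451 normalized CPM in WT and 447, 426 and 543 in DKO, with overlap. let-7a-5p had 282, 222 and 763 in WT against 255, 250 and 313 in DKO, and let-7e-5p 107, 259 and 365 against 156, 176 and 201. Of the 22 let-7 and miR-98 names in the table, 6 had no count in any of the 6 libraries and 9 were tested, of which 1 was called lower and 5 had positive and 4 negative fold changes. Summed over the family, the level was 1464, 1369 and 1723 CPM in WT and 1303, 1377 and 1559 in DKO libraries, so the groups overlapped. Since let-7b-5p and let-7c-5p differ by 1 base, reads with an error there could be assigned to the wrong one.

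**Figure D2:**
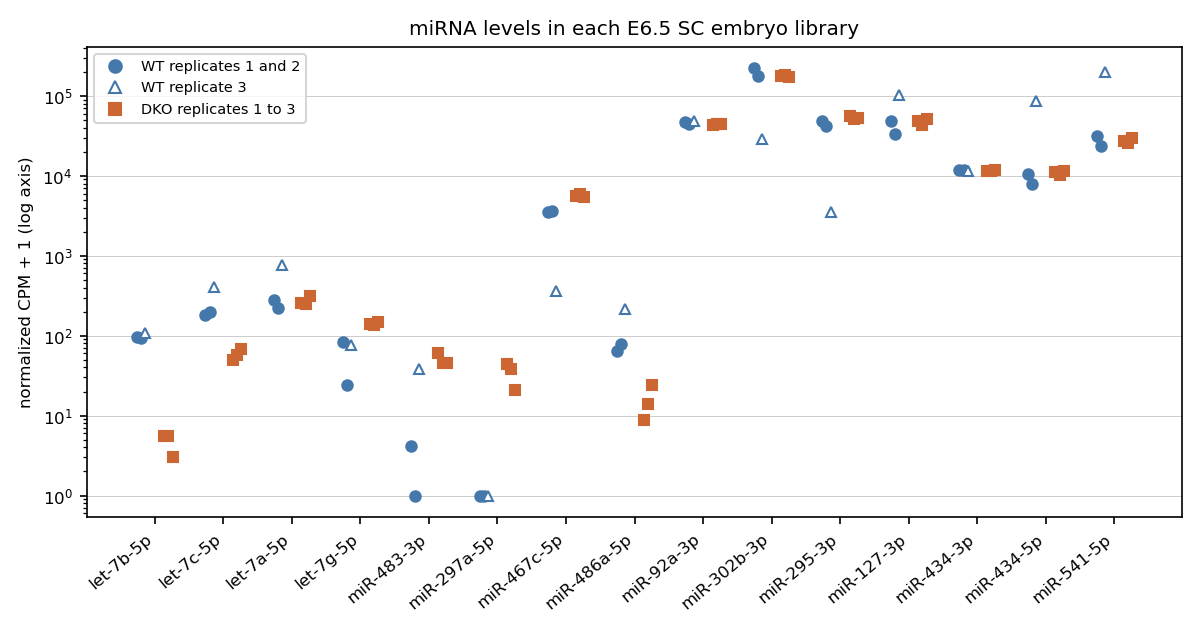
Normalized CPM plus 1 (log axis) of 15 miRNAs in each of the 3 WT libraries (blue circles, with replicate 3 as an open triangle) and the 3 DKO libraries (orange squares). For let-7b-5p the 3 WT libraries lie together at 91.9 to 107 and the DKO libraries at 2.05 to 4.61, while for miR-302b-3p, miR-295-3p, miR-434-5p and miR-541-5p WT replicate 3 alone departs from the other 5.

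Of the H19-Igf2 miRNAs, miR-483-3p was higher in the DKO libraries than in every WT library. Its gene Mir483 lies within Igf2 (chr7:142654924-142654996, minus strand). Normalized CPM were 3.14, 0 and 37.6 in WT and 60.0, 44.1 and 45.1 in DKO, from 1, 0 and 7 counts in WT and 346 over the 3 DKO libraries. The fitted log2 fold change was 2.30 ± 1.1 (SE, edgeR adjusted p = 0.397) with all libraries. Without WT replicate 3, which held 7 of the 8 WT counts, it was 5.29 ± 0.92 (edgeR adjusted p = 0.0494), and 4.47 (edgeR adjusted p = 0.0231) with 5 libraries at equal depth. As pooled counts, DKO exceeded WT 7.0-fold (95% exact interval 3.51 to 16.3) with all libraries and 43.1-fold (7.68 to 1705) without WT replicate 3, where the WT total was 1 count. The upper bound is that wide because of the single count.

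The opposite arm, miR-483-5p, overlapped between the groups, with 0, 32.4 and 21.5 normalized CPM in WT and 33.2, 38.3 and 28.7 in DKO (log2 fold change 0.83 ± 0.86, SE, edgeR adjusted p = 0.664). miR-675-3p and miR-675-5p were too scarce to test with all libraries. miR-675-3p had 2, 7 and 0 counts in WT and 20, 28 and 7 in DKO, which is 0.989 times the WT level per count sequenced (95% exact interval 0.485 to 2.28). miR-675-5p had 0, 4 and 0 counts against 5, 1 and 0, or 0.243 times the WT level (0.0575 to 1.17). Both were tested without WT replicate 3 and neither was called, with log2 fold changes of -0.33 (edgeR adjusted p = 0.935) and -2.18 (edgeR adjusted p = 0.627). The pooled ratio of miR-675-5p was then 0.187 (0.0443 to 0.899), an interval that covers counting error only, and all 4 of its WT counts came from WT replicate 2.

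miR-483 is also abundant in extraembryonic ectoderm (Exe), the trophoblast-derived tissue next to the epiblast (Epi). In the series' own E6.5 control embryos miR-483-3p had 1551, 770, 426 and 1873 CPM in the 4 Exe libraries and 129, 274, 51.4 and 41.4 in the 4 Epi libraries. The DKO values of 45.3 to 60.5 CPM, on the same scale, lay at the lower end of the Epi range. The WT values of 2.96, 0 and 27.1 CPM lay below every Epi library. let-7b-5p had 6.99, 21.3, 15.6 and 24.0 CPM in these Epi libraries and 471, 28.8, 64.3 and 109 in Exe. Its WT values given above, though scaled with TMM factors, lay above all these Epi values and its DKO values below them.

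The Dlk1-Dio3 miRNAs were at similar levels in DKO embryos and in WT replicates 1 and 2. Of 113 mature miRNAs annotated from 58 genes between Dlk1 and Dio3 (chr12:109452823-110281097), 84 were tested. None was called in either direction with all libraries, and none of 91 without WT replicate 3. At an unadjusted p under 0.05, 0 were higher and 4 lower of the 84, beside 3.69% and 9.33% over all miRNAs tested. Without WT replicate 3, 3 were higher and 1 lower of the 91, beside 6.34% and 7.33% over all miRNAs tested. Among the 65 locus miRNAs with at least 100 CPM, all 65 had a DKO mean within a factor of 2 of the mean of WT replicates 1 and 2. Over all 274 miRNAs at that level the share was 95.6%. The median log2 fold change of the locus was 0.03 with all libraries, beside 0.12 for all other miRNAs tested, and 0.08 beside 0.05 without WT replicate 3. By adjusted p a call was made only by DESeq2 (1 lower), without WT replicate 1 (1 lower) and in the 5-library fits (1 higher and 1 lower, and 1 lower when thinned).

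The share of all miRNA counts that fell on the locus was 21.2%, 20.4% and 42.3% in the WT libraries and 22.3%, 21.5% and 23.2% in the DKO libraries. The means were 28.0% ± 12.4 (SD, n = 3) and 22.3% ± 0.859 (SD, n = 3), and the groups overlapped. Exact binomial 95% intervals of single libraries were narrow, such as 21.1% to 21.4% for WT replicate 1 and 42.1% to 42.5% for WT replicate 3, so the spread lay between libraries and not in counting. The DKO mean was 5.63 percentage points below the WT mean with all libraries and 1.54 points above it without WT replicate 3. An exact permutation test of 3 against 3 cannot go below p = 0.1, and none was run. In the 3 Dnmt-null SC embryos at E6.5 (titled Dnmt-TKO-SC), in which the DNA methyltransferases were inactivated and which are set against the same WT libraries, the share was 33.0%, 28.2% and 31.8%.

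**Figure D3:**
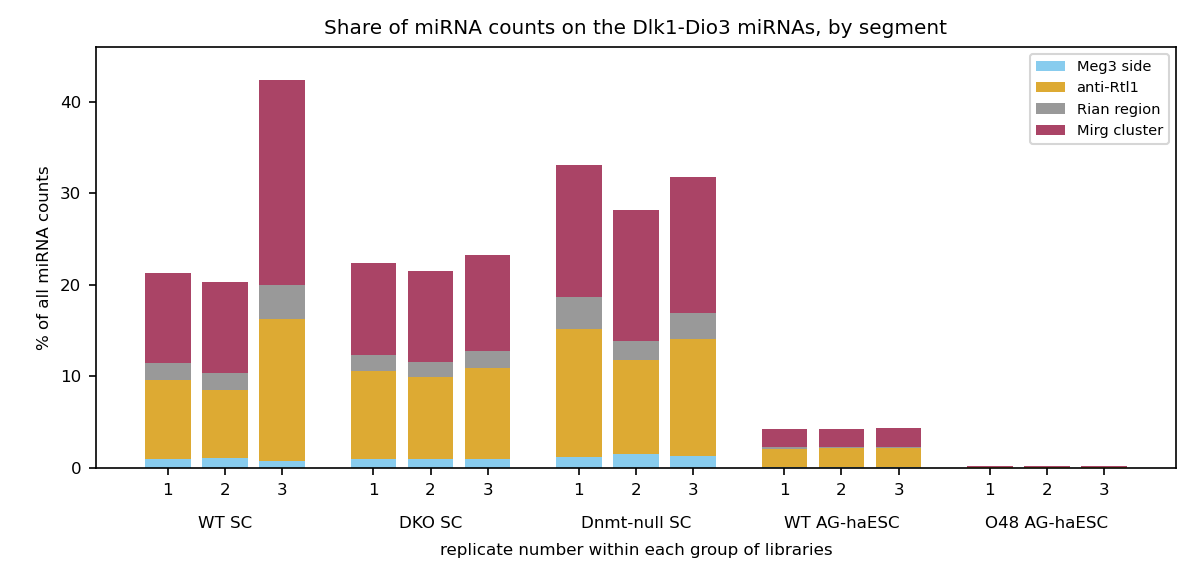
Percent of all miRNA counts that fell on the Dlk1-Dio3 miRNAs in each library, stacked by segment of the locus, for WT, DKO and Dnmt-null SC embryos at E6.5 and for WT and O48 AG-haESCs. WT replicate 3 reaches 42.3%, the other WT and all DKO SC libraries lie between 20.4% and 23.2%, and O48 cells lie at 0.203% to 0.217% against 4.21% to 4.33% in WT cells.

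By segment, the 13 tested miRNAs on the Meg3 side had a median log2 fold change of -0.11, with 6 positive and 7 negative. miR-665-3p, the most abundant there, had 3129, 4577 and 1988 normalized CPM in WT and 3848, 4256 and 3696 in DKO. In the anti-Rtl1 segment, the miRNAs on the plus strand lie antisense to Rtl1, a retrotransposon-derived gene that they target. Both miR-3071 names there lie on the minus strand, as Rtl1 does, and hold the same counts as miR-136. The 12 tested miRNAs of this segment had a median of 0.14, with 8 positive and 4 negative, and of 0.27 without WT replicate 3. miR-127-3p, their leading member, had 48854, 33200 and 102449 in WT and 48234, 43654 and 51686 in DKO (log2 fold change -0.36 ± 0.45, SE, edgeR adjusted p = 0.692). Its fold change without WT replicate 3 was 0.25 ± 0.27 (SE, edgeR adjusted p = 0.759), of the opposite sign.

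The 5 tested miRNAs of the Rian region had a median of -0.71 with all libraries and -0.10 without WT replicate 3. Their leading member miR-370-3p had 19071, 15686 and 50279 normalized CPM in WT and 15691, 14491 and 16720 in DKO. The 54 tested miRNAs of the Mirg cluster had a median of 0.07, with 33 positive and 21 negative. The 2 on the Dio3 side were too scarce to test. In all, 12 of the 84 lay above every WT library and 11 below, beside 18.4% higher and 14.3% lower over all miRNAs tested.

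miR-485-5p of the Mirg cluster had the lowest p in the locus. Its levels were 326, 476 and 532 normalized CPM in WT and 198.8, 189 and 228 in DKO, all DKO values below all WT values. The log2 fold change was -1.11 ± 0.29 (SE, edgeR adjusted p = 0.153) and -0.95 ± 0.25 without WT replicate 3 (edgeR adjusted p = 0.143). It was called in the 5-library fit (-0.96, edgeR adjusted p = 0.0290). Its partner arm miR-485-3p had 2283, 2737 and 4449 normalized CPM in WT and 1977, 1622 and 2472 in DKO, with overlap (log2 fold change -0.64, and -0.29 without WT replicate 3). The same 5-library fit called miR-667-5p, also of the Mirg cluster, in the other direction (1.34, edgeR adjusted p = 0.0290). With all libraries miR-667-5p overlapped, at 28.2, 25.2 and 80.6 in WT and 64.1, 74.1 and 61.9 in DKO.

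WT replicate 3 departed within hairpins, where both arms come from 1 precursor. For miR-434, the 5p arm had 10614, 7878 and 87035 normalized CPM in the WT libraries, while the 3p arm had 11693, 11860 and 11611. For miR-541, the 5p arm was 199435 beside 31921 and 23540, while the 3p arm was 53.7 beside 204 and 274. For miR-409 the 5p arm was 39216 beside 6657 and 4598, and the 3p arm 26031 beside 16352 and 16565. Of 19 hairpin names with both arms at 100 CPM or more, the arms lay on opposite sides of WT replicates 1 and 2 in 12 and differed by over 2 on the log2 scale in 7. Among these names, miR-3544 and miR-3071 lie opposite miR-337 and miR-136 and hold the same counts as they do.

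Outside the locus too, WT replicate 3 was more than 4-fold above the mean of WT replicates 1 and 2 for 13 and more than 4-fold below for 44 of 209 miRNAs at 100 CPM or more. Inside it was so for 7 and 11 of 65. WT replicates 1 and 2 differed from each other by that much for 2 of all 274. What set WT replicate 3 apart was not tested.

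The 6 genes that the study deleted elsewhere in the series (Mirlet7b, Mir127, Mir541, Mir369, Mir540 and Mir409) had not been targeted in these embryos. Of their 10 tested miRNAs, 1, let-7b-5p, was called, and the other 9 lie in Dlk1-Dio3. miR-540-3p had 2145, 1669 and 935 normalized CPM in WT and 2014, 1928 and 2061 in DKO. miR-369-3p had 646, 407 and 86.0 against 628, 702 and 650. miR-409-3p, an abundant member of the Mirg cluster, had 16352, 16565 and 26031 against 14865, 14680 and 16156. None of these 3 was called, with edgeR adjusted p of 0.589 to 0.654.

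In the cells themselves the locus was much lower in 1 line than in another. The AG-haESC line O48, which the study's methods use as the parent of its miRNA deletions, was compared with WT AG-haESCs, 3 libraries each. O48 was read here as the DKO line, but neither its labels nor the methods say outright that it carries both DMR deletions. The locus took 4.24%, 4.21% and 4.33% of the counts in WT cells and 0.203%, 0.217% and 0.211% in O48. edgeR called 65 of 92 tested locus miRNAs lower in O48 and 0 higher, beside 11.4% lower and 2.07% higher over all 773 tested (16.4% and 4.27% at an unadjusted p). The median log2 fold change was -4.31 in the locus and -0.13 elsewhere. In the 2 libraries labelled Mir-6KO, which entered this fit only for its spread, the locus took 19.8% and 15.5%, and without them 70 locus miRNAs were called lower.

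The difference between embryos and cells was tested as an interaction over the 12 WT, DKO and O48 libraries. Of 101 locus miRNAs in that fit, 78 had a higher fold change in SC embryos (DKO against WT) than in AG-haESCs (O48 against WT) and 0 a lower one, against 14.4% higher and 1.51% lower over all 729 tested (25.1% and 4.12% at an unadjusted p). Without WT SC replicate 3, 81 locus miRNAs were higher and 0 lower, against 19.4% and 2.99% of 803. miR-127-3p had 13207, 13831 and 13876 normalized CPM in WT cells and 614.6, 655 and 603 in O48, a log2 fold change of -4.45 ± 0.10 (SE, edgeR adjusted p = 1.47e-07). The fold change in embryos minus that in cells was 4.42 ± 0.38 (SE, edgeR adjusted p = 3.73e-06). For miR-434-3p it was 4.45 ± 0.32, and for miR-409-3p 4.23 ± 0.34. Embryos carry a maternal genome, which AG-haESCs lack, so stage and maternal genome cannot be told apart here.

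**Figure D4:**
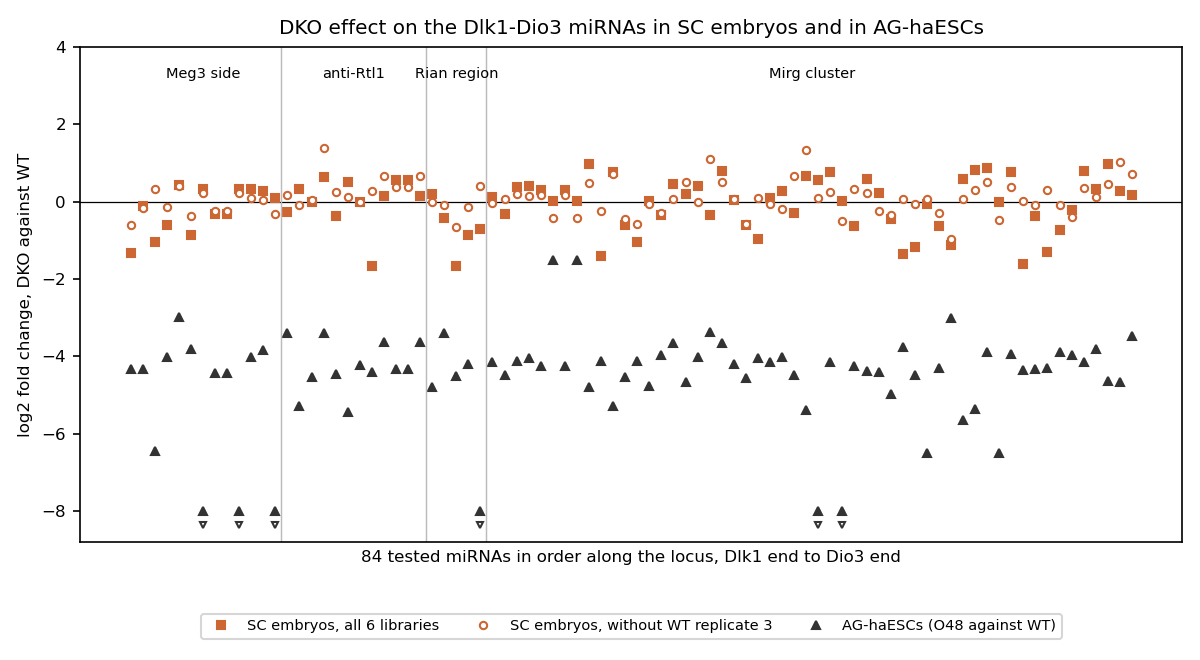
Log2 fold change of DKO against WT for the 84 Dlk1-Dio3 miRNAs tested in SC embryos, in order along the locus, with all 6 libraries (filled squares), without WT replicate 3 (open circles) and, where tested, in AG-haESCs (triangles, O48 against WT). SC values scatter around 0 with a median of 0.03, and AG-haESC values around a median of -4.31, with 6 beyond the lower edge drawn at -8 with an arrow.

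Most miRNAs of the Sfmbt2 cluster families had a higher mean level in DKO embryos. These families, miR-297, miR-466, miR-467 and miR-669, are made largely from an intron of Sfmbt2, an imprinted gene expressed from the paternal copy and required in the trophoblast. Of their 78 names, 51 were tested, 47 of them from chromosome 2, and 19 shared all their counts with another name. The DKO libraries lay above every WT library for 30 of the 51 and below for 1, beside 18.4% and 14.3% over all miRNAs. The median log2 fold change was 1.13, beside 0.10 over all miRNAs tested, with 47 positive and 4 negative. At an unadjusted p under 0.05, 11 were higher and 1 lower, beside 3.69% and 9.33% over all miRNAs, and none passed edgeR's adjusted threshold. DESeq2 called 5 higher and 1 lower, beside 1.08% and 6.29%.

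WT replicate 3 was the lowest WT library for 41 of the 51 and had no count for 20 of them. Without it the median was 0.82, with 50 of 53 positive and none called in either direction (0.198% higher and 0.792% lower over all miRNAs). In the 5-library fit the median was 0.79, with 18 of 66 called higher and 1 lower (3.61% and 3.92% over all miRNAs). With these 5 libraries at equal depth, 10 of 46 were called higher and 1 lower, at a median of 0.72, beside 2.58% and 3.52% over all miRNAs in that fit. In both fits some called names share their counts before thinning, as miR-467a-5p does with miR-467b-5p, so there are fewer measurements than names. Summed, the families took 35265, 57551 and 5955 CPM in WT and 59245, 64767 and 56718 in DKO, so WT replicate 2 lay within the DKO range. In control embryos the sum was 132606 to 250647 in Exe and 21217 to 100516 in Epi, and only WT replicate 3 fell outside the Epi range.

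miR-467c-5p, an abundant member with counts of its own, had 3575, 3658 and 365 normalized CPM in WT and 5565, 5897 and 5487 in DKO. In the 5-library fit its log2 fold change was 0.66 ± 0.12 (SE, edgeR adjusted p = 0.0130). miR-467a-5p, which shares its counts with miR-467b-5p, had 2079, 2117 and 806 in WT and 3209, 3366 and 2931 in DKO. The pair had a fold change of 0.61 ± 0.13 in that fit (edgeR adjusted p = 0.0251). miR-466a-3p, the most abundant, shares its counts with miR-466e-3p. It had 3847, 6811 and 279 in WT and 5877, 6456 and 5637 in DKO, so WT replicate 2 lay above all DKO libraries.

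miR-297a-5p had no count in any WT library and 93, 89 and 49 in the DKO libraries. Over the pooled totals it was at least 12.5-fold higher in DKO, with WT set at 3 counts over the group. Of the 4 with a negative fold change, miR-466i-5p, whose gene lies on chromosome 13, was the one below every WT library. It had 125, 223.4 and 269 normalized CPM in WT and 30.0, 43.3 and 80.3 in DKO.

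**Figure D5:**
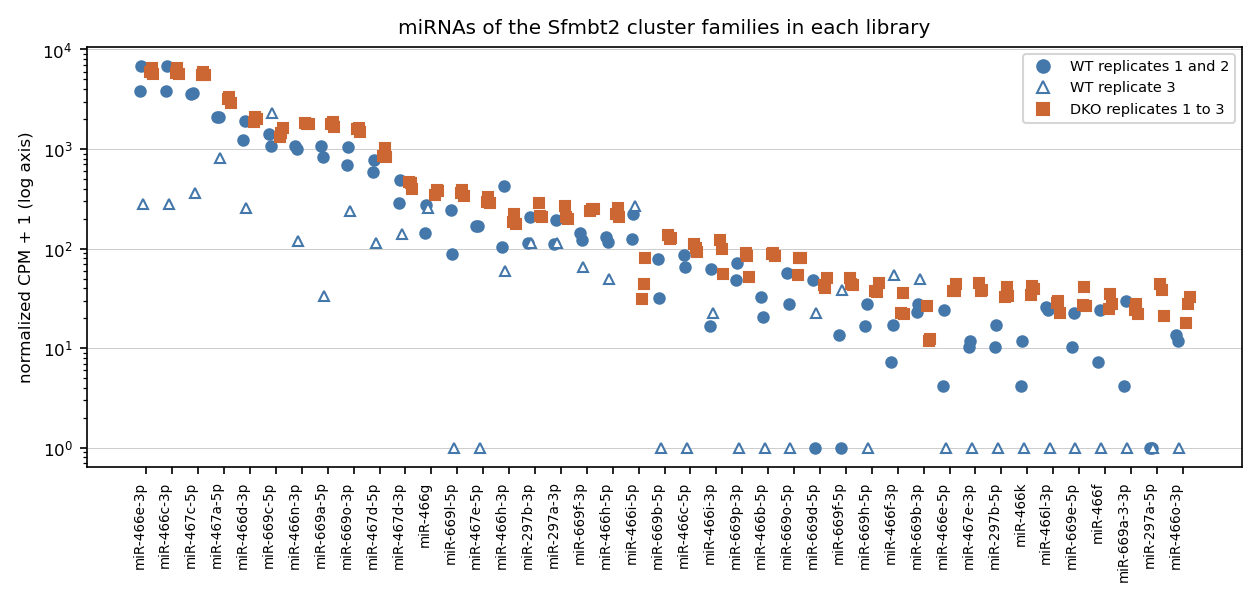
Normalized CPM plus 1 (log axis) of 41 miRNAs of the Sfmbt2 cluster families in order of mean level, 1 for each set of names with equal counts, in the 3 WT libraries (blue, replicate 3 as an open triangle) and the 3 DKO libraries (orange squares). WT replicate 3 was the lowest WT library for 41 of the 51 names tested and had no count for 20, while the DKO libraries lie close to each other.

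The Sfmbt2 families are also markers of Exe. A list of 38 miRNAs higher in Exe than in Epi of E6.5 control embryos (edgeR, log2 difference above 2, 10.4% of 365 tested) holds 15 of these miRNAs and both arms of miR-483. Of its 36 miRNAs tested in SC embryos, 15 lay above every WT library in DKO and 6 below, beside 18.4% and 14.3% over all miRNAs. The 6 below were miR-486a and miR-486b, both arms of each, and the pair miR-203-3p and miR-203b-5p. The median log2 fold change was 0.44 with all libraries and 0.51 without WT replicate 3, but -0.19 over the 27 that could be tested with all libraries thinned. The summed level of the list was 13433, 14101 and 8142 CPM in WT and 17946, 19119 and 17726 in DKO, without overlap. It ranged from 60188 to 81769 in control Exe and from 7648 to 26106 in control Epi, so both SC groups lay within the Epi range. Without miR-483, a small part of them, the sums were 13430, 14066 and 8100 against 17852, 19034 and 17652. The 15 miRNAs of the Sfmbt2 families stayed in the list, so its higher sums are not independent of the levels of those families given above. Whether more Exe cells or more RNA per cell gave the higher sums cannot be told apart in whole samples.

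The 30 miRNAs higher in Epi (8.22%) served as the opposite list. Their sum was 279294, 258529 and 64779 CPM in WT and 242347, 254429 and 238122 in DKO, against 187204 to 287642 in control Epi and 25048 to 41743 in control Exe. All but WT replicate 3 were thus within the Epi range, and none of the 29 tested members was called. The median log2 fold change was 0.10 with all libraries and -0.09 without WT replicate 3. miR-363-3p of this list had 14308, 15486 and 8640 normalized CPM in WT and 13578, 13573 and 13984 in DKO.

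The miR-302 and miR-290 clusters, named by their first member, took a large part of the counts in every library but WT replicate 3. miR-302b-3p, the most abundant miRNA on average, had 221202, 177969 and 28793 normalized CPM in WT and 175518, 185300 and 171592 in DKO. Its log2 fold change was 0.32 ± 0.60 (SE, edgeR adjusted p = 0.814). miR-295-3p had 49195, 42141 and 3573 in WT and 56253, 51523 and 52516 in DKO, each above every WT library (0.76 ± 0.70, SE, edgeR adjusted p = 0.643). Without WT replicate 3 their fold changes were -0.14 and 0.25.

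All 9 tested miRNAs of the miR-302 list had positive fold changes with all libraries, at a median of 0.43. Without WT replicate 3, 5 were positive and 4 negative, at a median of 0.04, and none was called in either fit. Of 18 tested in the miR-290 list, several of which share counts in pairs of names, 15 were positive, at a median of 0.55, and none was called. Leaving out WT replicate 3, 17 were positive, at a median of 0.26, and the 5-library fit called 1 of the 18, miR-291b-5p, lower. Summed, the miR-302 cluster took 235690, 213863 and 27281 CPM in WT and 203448, 217297 and 198264 in DKO. The miR-290 cluster took 114371, 110061 and 27312 in WT and 134579, 134498 and 123366 in DKO, so here the DKO sums lay above the WT sums also without WT replicate 3.

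Among abundant housekeeping miRNAs, miR-92a-3p of the growth-promoting miR-17-92 cluster was nearly level, with 46574, 45127 and 48146 normalized CPM in WT and 43846, 44507 and 44377 in DKO. All DKO values lay just below the WT values, at a log2 fold change of -0.08 ± 0.30 (SE, edgeR adjusted p = 0.918). miR-26a-5p, miR-191-5p, miR-182-5p and miR-99b-5p were again high in WT replicate 3, at 57420, 59606, 62234 and 82242, against 14785 to 35067 in the other WT libraries and 13529 to 30705 in the DKO libraries. None of these was called. In the miR-17-92 list, 0 of 23 tested were called, and the median was 0.01, or -0.11 without WT replicate 3.

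Of 12 tested miRNAs in the blood and endothelium list, 6 lay below every WT library and 0 above, beside 14.3% and 18.4% over all miRNAs. The same 6 were lower at the unadjusted but not the adjusted threshold in edgeR (9.33% of all miRNAs were), and DESeq2 called all 6 lower (6.29% of all). They are miR-451a and miR-144-3p, which are made from 1 transcript of red cell precursors, and the arms of miR-486a and miR-486b, whose counts are equal or nearly equal. The 6 called lower in the 5-library fit held miR-142a-5p (-0.83, edgeR adjusted p = 0.0345) in place of miR-144-3p. miR-451a had 18.8, 70.3 and 43.0 normalized CPM in WT and 5.07, 9.99 and 7.79 in DKO (log2 fold change in the 5-library fit -2.61 ± 0.58, SE, edgeR adjusted p = 0.0290). miR-486a-5p had 62.7, 77.5 and 214.9 in WT and 7.84, 12.9 and 23.4 in DKO. With the 5 libraries at equal depth, 2 of 10 tested members were called lower, beside 3.52% of all miRNAs in that fit. They were miR-486a-5p and miR-486b-3p, whose counts were nearly equal before thinning, so they are close to 1 measurement. Neither miR-451a nor miR-144-3p was called there. The endothelial miR-126a-3p overlapped, with 84.7, 137 and 75.2 in WT and 123.6, 137 and 149 in DKO. The list summed to 1011, 1359 and 918 CPM in WT and 774, 813 and 929 in DKO, which overlapped. The part of blood cells or of RNA from other material in these low levels was not tested.

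The endoderm list, led by miR-192-5p, summed to 1866, 2033 and 2377 CPM in WT and 1880, 1607 and 1967 in DKO, with overlap. The sum was 761 to 1768 in control Epi and 1924 to 4827 in control Exe, so every SC library but DKO replicate 2 lay above the Epi range. The liver miRNA miR-122-5p had 31.4, 19.8 and 210 normalized CPM in WT and 14.8, 10.8 and 9.02 in DKO (edgeR adjusted p = 0.180). DESeq2 called it lower (log2 fold change -2.99, DESeq2 adjusted p = 0.0138). Without WT replicate 3 its log2 fold change was -1.08 (edgeR adjusted p = 0.434). The mesenchyme and muscle list summed to 213, 197 and 182 CPM in WT and 283, 262 and 235 in DKO, without overlap, led by miR-143-3p. Control Epi libraries ranged from 125.7 to 260 and control Exe libraries from 242 to 1308. The neural list held 147 to 209 CPM in WT and 135 to 186 in DKO, within the 129 to 266 of control Epi. miR-10b-5p, the only tested member of the Hox list, had 267, 178 and 967 normalized CPM in WT and 129, 103 and 135.7 in DKO (log2 fold change -1.92 ± 0.59, SE, edgeR adjusted p = 0.180). Leaving out WT replicate 3, the highest of the 6, gave -0.82 ± 0.33 (SE, edgeR adjusted p = 0.309). DESeq2 with all libraries called miR-10b-5p lower (-2.04, DESeq2 adjusted p = 0.0290).

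The miR-200 family, of epithelial cells, had 8 tested members, none called, and a median of 0.11, or -0.11 without WT replicate 3. miR-200c-3p had 5249, 5353 and 1778 normalized CPM in WT and 4262, 4214 and 4182 in DKO. The imprinted genes Gnas and Mest gave 4 and 2 tested miRNAs, none called. miR-298-5p, near Gnas, had 11103, 9775 and 7860 in WT and 10749, 10824 and 10459 in DKO. miR-335-3p, within Mest, had 7748, 5525 and 4771 against 4937, 4880 and 5275. The growth-limiting miR-322 cluster had a median of 0.54 over 9 tested, beside 0.10 over all miRNAs, with none called. miR-450a-5p of that cluster had 1317, 987 and 204 in WT and 1332, 1295 and 1341 in DKO. miR-148a-3p, the leading member of the list of the miR-29 and miR-148 families, had 6607, 4359 and 6926 against 6045, 5769 and 6277. Of the miR-34 miRNAs, miR-34b-3p had 87.8, 90.1 and 107 in WT and 44.3, 57.0 and 44.3 in DKO, below every WT library (edgeR adjusted p = 0.280). DESeq2 called it lower (-0.998, DESeq2 adjusted p = 0.0299).

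Dnmt-null SC embryos were set against the same WT libraries. The Sfmbt2 families had a median log2 fold change of 1.19 there, beside 1.13 in DKO, and the Exe list 0.79 beside 0.44. The Epi list had -0.71 beside 0.10, and the blood and endothelium list 0.02 beside -1.41. let-7b-5p had 37.9, 61.0 and 204 normalized CPM there, overlapping WT, and miR-483-3p 0, 3.21 and 7.21. miR-467c-5p had 4462, 10919 and 4847, and miR-302b-3p 78252, 67084 and 115393. edgeR called 7 of 461 miRNAs higher in Dnmt-null than in WT embryos (1.52%) and 0 lower (0%), with 46 (9.98%) and 41 (8.89%) at an unadjusted p under 0.05. Since both comparisons share the WT libraries, WT replicate 3 included, no overlap between them is given.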

How the data were processed

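Small RNA libraries had been made by the authors with CAS-seq (100 pg of RNA, PCR, no molecular identifiers described). Per the submitters' notes and methods, fastp 0.20.1 trimmed the reads, and Bowtie 1.2.1.1 placed them on the GRCm38 genome and then on miRBase mature sequences. The authors deposited raw counts per mature miRNA, and 88 of 91 samples are in the table used. Columns of no sample of the series numbered 0. Genes were placed with RefSeq (1489 of 1504 names matched).

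From these counts edgeR 4.0.16 (R 4.3.3) fitted WT, DKO and Dnmt-null SC embryos together, with TMM factors, filterByExpr at 10 counts and a quasi-likelihood test. DESeq2 1.42.0 was an alternative. Interactions used SC and AG-haESC libraries in 1 fit, and 2 libraries labelled Mir-6KO entered the AG-haESC fit for its spread. Normalized CPM use TMM factors, while sums and shares use totals. Scripts were tested on simulated data. Same-numbered WT and DKO SC libraries deviated together, with correlations of 0.170, 0.285 and 0.204 for replicates 1, 2 and 3, so blocked values are given where they change a call. This pairing comes from the data only. miRNAs were named by rule (adjusted p and non-overlap, the 10 most abundant, fixed loci, the 3 most abundant of each list, the 5 strongest differences each way between embryos and cells), and others are said to be chosen after their values were seen. Members and lists were chosen with earlier results of these data known.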

Additional observations from a re-analysis of the deposited data

Results flagged for a closer look

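The fold change of DKO against WT SC embryos was compared with that of O48 against WT AG-haESCs by an interaction over 12 libraries (edgeR adjusted p under 0.05, log2 difference beyond 0.5). It was higher in embryos for 78 Dlk1-Dio3 miRNAs and for 27 others, and lower for 11.

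The 5 strongest differences in each direction rest mostly on miRNAs that are near 0 in some group, where the fitted value depends on the prior count and is no bound. The fitted difference was -9.79 for miR-34a-5p, which had 4, 0 and 0 counts in WT and 6, 2 and 2 in DKO embryos, but 1, 0 and 0 in WT cells and 226, 118 and 327 in O48. For miR-124b-3p it was -5.08, from 4, 0 and 0 against 3, 0 and 2 counts in embryos and 48, 65 and 56 against 357, 884 and 344 in cells. For let-7b-5p it was -4.87 (edgeR adjusted p = 0.00411), with 30, 51 and 20 against 10, 11 and 5 counts in embryos and 65, 32 and 20 against 131, 19 and 44 in cells. It was -3.50 for miR-200b-5p and -2.95 for miR-1934-3p, the latter with 14, 45 and 36 against 16, 22 and 19 counts in embryos.

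Upward, the difference was 9.11 for miR-376c-3p of the Mirg cluster, which had no count in O48 cells and 190, 218 and 166 in DKO embryos. It was 12.03 for miR-297a-5p, with no count in WT embryos. For miR-467b-3p it was 12.6, with 0, 0 and 0 against 11, 16 and 20 counts in embryos and 0, 23 and 2 against 0, 0 and 0 in cells. It was 13.1 for miR-129-2-3p and for miR-129b-5p, which share their counts, 0 in each WT embryo library and 18, 4 and 5 in DKO embryos.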

How the results depend on the processing

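Limits: every WT library is shallower than every DKO library, WT replicate 3 departs from the other libraries, and 3 libraries a group give little power. Calls of single miRNAs moved with the settings below. The cause of each change was not tested beyond what the setting itself changes.

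The count of miRNAs called in SC embryos was 0 higher and 1 lower. It became 5 and 29 with DESeq2, 4 and 18 without a filter on low counts, and 17 and 43 at an unadjusted p. The lower count fell to 0 with the replicate block and with all libraries thinned. With only the WT and DKO libraries and no WT replicate 3 the counts were 24 and 26, and 11 and 15 when these were thinned. Leaving out 1 library gave 0 to 1 higher and 0 to 8 lower, the 8 without WT replicate 1. For the Dlk1-Dio3 miRNAs the count of 0 lower became 1 with DESeq2, 4 at an unadjusted p, 0 to 1 without 1 library (the 1 without WT replicate 1), and 1 in both fits of 5 libraries, where the count higher was 1 and, when thinned, 0. Their median log2 fold change of 0.03 was 0.34 without a filter, 0.20 with the replicate block and -0.14 when thinned, where the median of all miRNAs was 0.51, 0.19 and -0.04. Library totals in place of TMM moved the median of all miRNAs from 0.10 to 0.22.

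let-7b-5p stayed lower under all settings run, at -4.61 with the replicate block and -3.98 when thinned, where it was not called. Leaving out 1 library gave -4.83 to -4.35, called only without WT replicate 1 or 3. miR-483-3p, not called at 2.30, was called without WT replicate 3. Leaving out 1 library gave 1.52 to 5.29, and the fits of 5 libraries 5.34 and, thinned, 4.47. In the thinned fit of all 9 libraries it was too scarce to test.

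In AG-haESCs the 16 miRNAs higher in O48 became 78 with DESeq2, 33 at an unadjusted p, 5 with the replicate block and 56 without the libraries labelled Mir-6KO, while the Dlk1-Dio3 miRNAs lower in O48 numbered 61 to 81 under all settings run. Same-numbered cell libraries did not deviate together. The block moved the miRNAs lower in O48 from 88 to 77. It was run for DKO against WT embryos, where it changed no other call, and for these cells only. The difference between embryos and cells gave 105 higher and 11 lower, 183 and 30 at an unadjusted p, and 156 and 24 without WT SC replicate 3. With a log2 difference above 3, the Exe and Epi lists held 15 and 13 miRNAs in place of 38 and 30.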

Other observations

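The 2 AG-haESC libraries labelled Mir-6KO, in which the study's methods deleted 6 miRNA genes from O48, did not lack the miRNAs of those genes. miR-127-3p had 740153 and 304874 counts in them, beside 2592 to 3627 in the 3 O48 libraries, and miR-541-5p had 373576 and 160417 beside 881 to 1398. let-7b-5p had 984 and 252 counts beside 19 to 131. The 2 libraries held 16501907 and 8533089 counts, and the O48 libraries 4661860 to 6102806. They served here only in the estimate of spread for AG-haESCs, and no comparison of them is made.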
